A study of Mus musculus with 6 samples.

Results

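The miRNAs miR-21 and miR-210 were followed in vitrified and fresh mouse blastocysts. They were taken by name, as the assays that carry exactly the number of miR-21 or of miR-210 and no # mark of a passenger strand. The rule found 2 of the 750 miRNA assays, mmu-miR-21 and mmu-miR-210, both on card A. They were chosen for known roles in survival, oxidative stress and hypoxia, and the rule uses no measured value.

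Small RNA was measured by real-time PCR on a pair of TaqMan Array rodent cards, A and B, with 3 vitrified pools (V1 to V3) set against 3 fresh control pools (F1 to F3). The pools held 300 blastocysts each, from superovulated 5-week-old Kunming mice, and all embryos were cultured in CZB medium. The vitrified embryos had 30 seconds in pretreatment solution (10% ethylene glycol and 10% DMSO) and 25 seconds in EDFS30 inside an open-pulled straw before liquid nitrogen, and were thawed in 0.5 M sucrose for 5 minutes. The fresh embryos had none of these steps. Survival was judged by re-expansion of the blastocoel some hours after warming, while the time of RNA extraction is not given in the sources used here, and a pool averages over all the cells of its embryos.

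MiRNAs are short RNAs that pair through their seed, bases 2 to 8, with target mRNAs and lower their translation or stability. miR-21 is induced by inflammatory and growth signals and by oxidative stress, and it represses inhibitors of survival such as Pdcd4. miR-210 is the miRNA most regularly induced in hypoxia. It is transcribed under hypoxia-inducible factors and represses Iscu, a scaffold of iron-sulfur cluster assembly, which lowers mitochondrial respiration.

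The mature sequences are shown because the assays read single arms of the hairpins and because miR-21 has near copies in the mouse genome. By the older names the assay mmu-miR-21 reads the 5p arm of Mir21a, mmu-miR-21# its 3p arm, and mmu-miR-210 the 3p arm of Mir210. The sequences are from RefSeq (GRCm38.p6), 5′ to 3′, with the seed in capitals.
mmu-miR-21a-5p: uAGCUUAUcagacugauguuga
mmu-miR-21a-3p: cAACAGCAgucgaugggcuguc
mmu-miR-210-3p: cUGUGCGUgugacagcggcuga
mmu-miR-21b: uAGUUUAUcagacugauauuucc
mmu-miR-21c: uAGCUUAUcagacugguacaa

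mmu-miR-21a-5p lies at chr11:86584120-86584141 on the minus strand, and its gene Mir21a falls within the span of Vmp1, which encodes a membrane protein of autophagy. mmu-miR-210-3p lies at chr7:141221407-141221428 on the minus strand, and no other RefSeq gene spans Mir210, whose nearest gene is Rassf7. The seeds of the members, AGCUUAU and UGUGCGU, differ. Of 1738 mature entries in the RefSeq table, 2 carry the seed of miR-21, namely mmu-miR-21a-5p and mmu-miR-21c, and 1 carries that of miR-210. mmu-miR-590-5p has no entry in that table and is not in the count. Counted from the 5′ end of mmu-miR-21a-5p, mmu-miR-21c shares the first 15 bases and first differs at A16G, whereas mmu-miR-21b first differs at C4U, inside the seed. Neither has an assay of its name on the cards, and whether the mmu-miR-21 assay also reads them was not tested.

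The pools numbered 1 stood apart from the others before any comparison of the groups. A threshold cycle (Ct) under 40, the cycle at which fluorescence crosses a set threshold, was determined for 218 miRNA assays in V1 and 140 in F1, against 382 to 409 in the other pools. The miRNAs of the miR-290 to miR-295 cluster, which are hallmarks of the early mouse embryo, were determined in none of 12 wells of V1 and F1 and in 21 of 24 wells of the other pools. A lower Ct means more template, and 1 cycle is about 1 unit on the log2 scale. The results are therefore given over all pools and again over the pools numbered 2 and 3.

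Markers of other tissues were also measured. In the pools numbered 2 and 3, all 5 assays of a blood list (miR-451, miR-486, miR-223, miR-142-3p and miR-150) were determined, and their summed level was 6.26% and 6.97% of U6 in the vitrified and 5.83% and 6.82% in the fresh pools. All 4 assays of a muscle and endothelium list (miR-143, miR-145, miR-126-3p and miR-133a) were determined as well, at 15.6% and 9.72% of U6 in V2 and V3 and at 7.24% and 52.5% in F2 and F3. The summed level of the miR-290 to miR-295 assays was lower, at 0.401% and 1.86% in V2 and V3 and at 1.65% and 0.554% in F2 and F3. In V1 and F1 the blood list was at 0.919% and 1.76% of U6, with miR-451 undetermined in F1, and the muscle and endothelium list at 0.200% and 0.0678%. The ciliated epithelium markers mmu-miR-449a and mmu-miR-34c instead summed to 0.983% of U6 in V1, but to 0.072% in F1. They summed to 0.146% and 0.127% in V2 and V3 and to 0.158% and 0.138% in F2 and F3. In V1, mmu-miR-449a (raw Ct 24.52) was earlier than in the other pools, whereas mmu-miR-34c (29.77) was later than in V2 and V3. Such levels cannot tell fewer cells of a type from less RNA per cell.

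mmu-miR-21 was among the earlier assays of its card in V2, V3, F2 and F3, was late in V1 and was undetermined in F1. Among vitrified pools, V2 had a raw Ct of 22.75 and V3 of 22.49, but V1 of 32.53. In the fresh blastocysts it was undetermined in F1 and had a raw Ct of 22.64 in F2 and 23.11 in F3. V2, V3, F2 and F3 thus lay within 0.616 cycles of each other, and V1 lay 9.91 cycles beyond the V2 and V3 average.

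Ordered by Ct among the determined miRNA assays of card A, mmu-miR-21 was in place 28 of 212 in V2, 18 of 234 in V3, 25 of 239 in F2 and 37 of 229 in F3, but 87 of 140 in V1. Places between assays also depend on the efficiency of each PCR and are a description. The delay of mmu-miR-21 in V1 was longer than that of most assays. Over the 130 card A assays determined in V1, V2 and V3, the median delay of V1 was 5.65 cycles, and 5 assays were delayed by more than mmu-miR-21. The delays ranged from −6.70 to 11.17 cycles, where a negative delay is an earlier Ct in V1.

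The undetermined well of F1 is a single well, and a failed well cannot be told apart from too little template. Of the 29 other card A miRNA assays with a mean Ct in F2 and F3 at or below that of mmu-miR-21 (22.88), 28 were determined in F1 and 1, mmu-miR-20a, was not. In V1 all 19 other assays that were as early in V2 and V3 were determined. A Ct of 40, the end of the run, would place mmu-miR-21 in F1 at least 17.1 cycles later than the mean of F2 and F3.

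mmu-miR-210 was determined in every pool. Among the vitrified pools its raw Ct was 26.85 in V2, 25.76 in V3 and, latest, 30.10 in V1. Among the fresh pools it was 25.59 in F2, 25.00 in F3 and, latest, 31.78 in F1. The groups overlapped. The control RNA snoRNA202 had the same late pools, at 25.90 in V1 and 27.47 in F1 against 17.79 to 18.22 elsewhere, while U6 was at 17.82 and 17.08 in these pools against 16.59 to 17.10.

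The delay of mmu-miR-210 was 3.79 cycles in V1, where 69.2% of the 130 assays were delayed by more. In F1 it was 6.49 cycles, close to the median of 6.16 over the 85 assays determined in F1, F2 and F3. The delays of those 85 assays ranged from −6.03 to 13.07 cycles. Assays undetermined in a compared pool have no delay and are left out of these medians and shares. Of the 73 other card A assays as early as mmu-miR-210 in F2 and F3, 18 were undetermined in F1. In V1, 5 of the 86 others that were as early in V2 and V3 were undetermined. The limits given for mmu-miR-21 hold here too. Among the determined assays of the card, mmu-miR-210 took place 99 of 212 in V2, 76 of 234 in V3, 78 of 239 in F2 and 71 of 229 in F3. These are ahead of most determined assays, as was place 52 of 140 in V1, whereas place 53 of 88 in F1 was behind most.

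**Figure D1:**
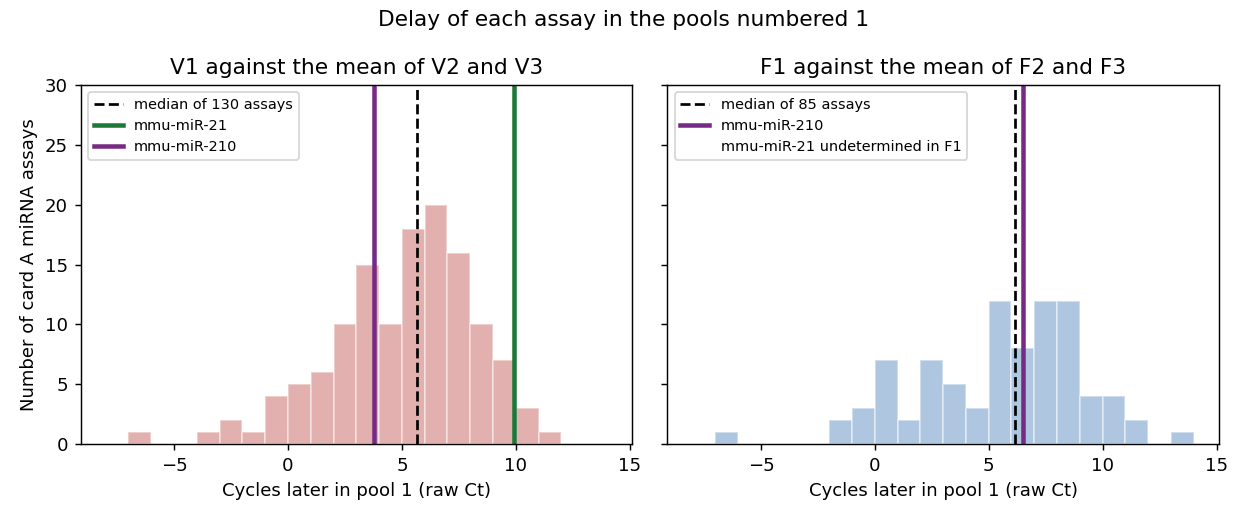
Histograms of the delay of card A miRNA assays in V1 against the mean of V2 and V3 (130 assays) and in F1 against the mean of F2 and F3 (85 assays), in cycles of raw Ct. Assays undetermined in a compared pool are left out. The green line marks mmu-miR-21, 9.91 cycles late in V1 and undetermined in F1, and the purple line mmu-miR-210, 3.79 cycles late in V1 and 6.49 in F1.

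Levels were then set against U6 snRNA, the reference of the study, as ΔCt, by taking from each Ct the average over the 4 U6 wells on the same card of that pool. A higher ΔCt means a lower level. U6 itself was 0.421 cycles later in vitrified than in fresh pools on card A, with 17.30 ± 0.46 (SD, n = 3) against 16.87 ± 0.26 (SD, n = 3), which differed by less than the SD of the vitrified pools (2-sided exact permutation test, p = 0.2, where the smallest possible is 0.1). The SD among the 4 U6 wells ranged from 0.0882 cycles in F1 to 0.506 in V3.

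**Figure D2:**
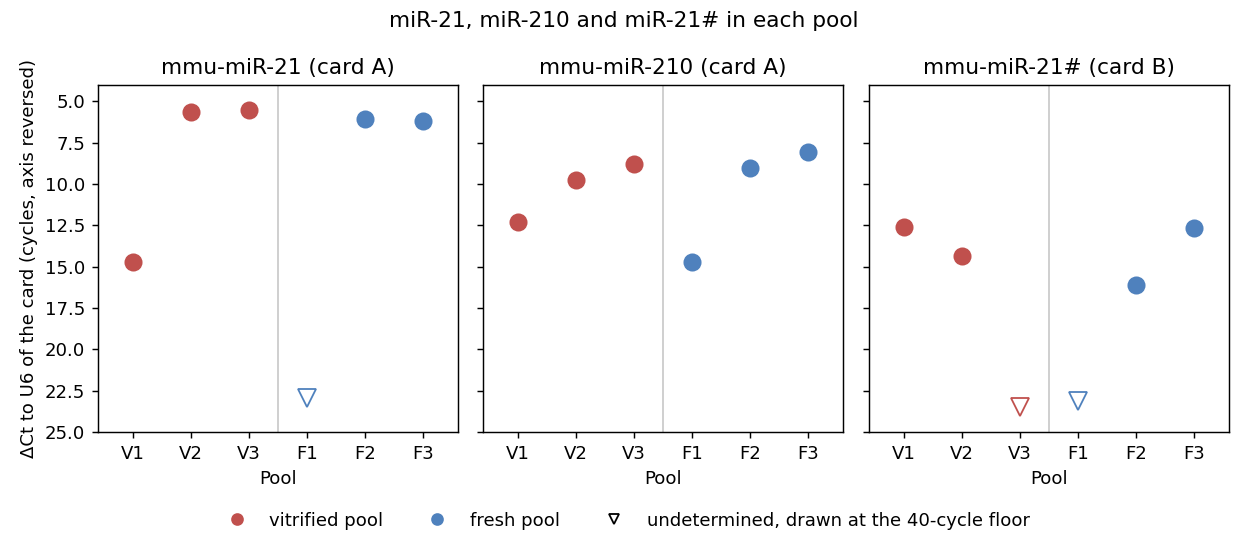
ΔCt to U6 of the same card in each pool for mmu-miR-21, mmu-miR-210 and mmu-miR-21#, on a reversed axis so that higher points mean more template. Filled points are determined wells (red, vitrified; blue, fresh), and open triangles are undetermined wells drawn at the floor of 40 cycles, which is a ΔCt of 22.92 for mmu-miR-21 in F1.

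For mmu-miR-21 the ΔCt was 5.65 in V2, 5.53 in V3, 6.06 in F2 and 6.15 in F3, whereas V1 stood at 14.71. Over all determined wells the mean was 8.63 ± 5.27 for vitrified (SD, n = 3) and 6.10 ± 0.070 for fresh blastocysts (SD, n = 2). The log2 fold change was −2.53, with a standard error of 3.09 and a 95% interval from −10.34 to 5.29 (limma, adjusted p = 0.998 over 335 assays). The negative sign rested on V1 alone, since F1 has no value and the level of V1 was far below the 4 others.

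In the pools numbered 2 and 3 the order of the groups was the opposite. Vitrified blastocysts had a ΔCt of mmu-miR-21 of 5.59 ± 0.087 (SD, n = 2) and fresh ones of 6.10 ± 0.070 (SD, n = 2). This is a log2 fold change of 0.52, where the standard error was 0.55 and the 95% interval ran from −0.91 to 1.94 (limma, adjusted p = 0.912 over 326 assays, of which 49.4% were higher in vitrified pools). The groups were apart, as they were with vitrified higher for 18.1% of the 326 assays. The 2-sided exact permutation p was 0.333, which is the lowest value open to 2 pools against 2. The difference was larger than the spread within the groups, which was among the smallest measured. Its pooled SD of 0.0788 was undercut by 1.53% of the 326 assays, whose median was 0.680. It is also smaller than the SD among single U6 wells in each of these 4 pools, which was 0.311 in V2, 0.506 in V3, 0.170 in F2 and 0.0978 in F3. The ΔCt uses the mean of 4 such wells, which varies less than a single well, so that these SDs are not like measures. limma moderates the spread of each assay toward that of all assays. Its standard error of 0.55 thus reflects the other assays more than the SD of 0.0788.

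The separation of mmu-miR-21 in these 4 pools depended on the reference. In raw Ct, F2 (22.64) lay between V2 (22.75) and V3 (22.49), and the log2 fold change was 0.25. It was 0.85 against a global mean, taken over the assays with a value in all 6 pools, and −0.30 with the mean of snoRNA135 and snoRNA202. For card B assays the snoRNA reference was snoRNA202 alone, since snoRNA135 of that card was undetermined in F1. The median over all tested assays moved as well, from −0.023 with U6 to 0.31 with the global mean, −0.84 with the snoRNAs and −0.20 in raw Ct. The share of assays higher in vitrified pools was 64.1%, 16.6% and 40.8% in turn. Relative to that median, mmu-miR-21 was higher by 0.45 to 0.54 under these 4 references. A reference moves every assay of a card by the same amount. This near constancy thus follows from the calculation and is no test of the reference.

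Between V1 and F1, mmu-miR-21 was at least 8.21 units higher in V1 on the log2 scale when F1 was taken at 40 cycles. This single pair of wells has no replicate. Setting F1 to 40 cycles turned the log2 fold change over all pools to 3.08, and setting undetermined wells and any Ct above 35 to 35 cycles gave 1.41, neither with an adjusted p under 0.05. With the pool number as a replicate block it was 0.52, since only the pools numbered 2 and 3 then form complete pairs.

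For mmu-miR-210 the vitrified pools had a ΔCt of 9.75 (V2), 8.80 (V3) and 12.28 (V1). The fresh pools had 9.01 (F2), 8.04 (F3) and 14.70 (F1). The means were 10.27 ± 1.80 for vitrified and 10.58 ± 3.60 for fresh blastocysts (SD, n = 3 each), and the spread exceeded their difference. The 2-sided exact permutation p was 0.9, where 0.1 is the smallest possible. The log2 fold change was 0.31, with a standard error of 1.998 and a 95% interval from −4.52 to 5.14 (limma, adjusted p = 0.998). Of all 335 assays, 48.1% were higher in vitrified pools with U6, 24.2% with the snoRNAs, 54.9% with the global mean and 40.0% in raw Ct, and mmu-miR-210 turned to −1.56, −0.065 and −0.11 in the last 3.

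The small difference over all pools was the sum of opposed ones. Between V1 and F1, the level of mmu-miR-210 was 2.42 higher on the log2 scale in V1. In V2 it was 0.74 lower than in F2 (−0.74), and in V3 0.76 lower than in F3 (−0.76). Averaged over these 4 pools, vitrified blastocysts stood at a ΔCt of 9.27 ± 0.67 and fresh ones at 8.52 ± 0.68 (SD, n = 2 each). The log2 fold change was then −0.75, its standard error 0.70 and its 95% interval −2.54 to 1.05 (limma, adjusted p = 0.912).

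Within each group, the pool numbered 3 was above the pool numbered 2, by 0.95 among the vitrified and by 0.96 among the fresh pools on the log2 scale, so that V3 lay above F2 and the groups overlapped (2-sided exact permutation test, p = 0.667). In raw Ct the 4 pools were parted, with V2 (26.85) and V3 (25.76) later than F2 (25.59) and F3 (25.00), as was the case for 26.1% of the 326 assays. The pooled SD of 0.677 was close to the median of all assays. The log2 fold change in these pools was −1.57 with the mean of snoRNA135 and snoRNA202 as the reference, −0.41 with the global mean and −1.01 without a reference. Relative to the median over all assays it was −0.73 under each of the 3 references and −0.81 in raw Ct, which again follows from the calculation. F3, the pool with the highest level of mmu-miR-210, also had the highest summed level of the muscle and endothelium list. V2 had the lowest mmu-miR-210 of these 4 pools (0.116% of U6) but the next highest level of the list (15.6%). The part of the list in the result was not tested.

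**Figure D3:**
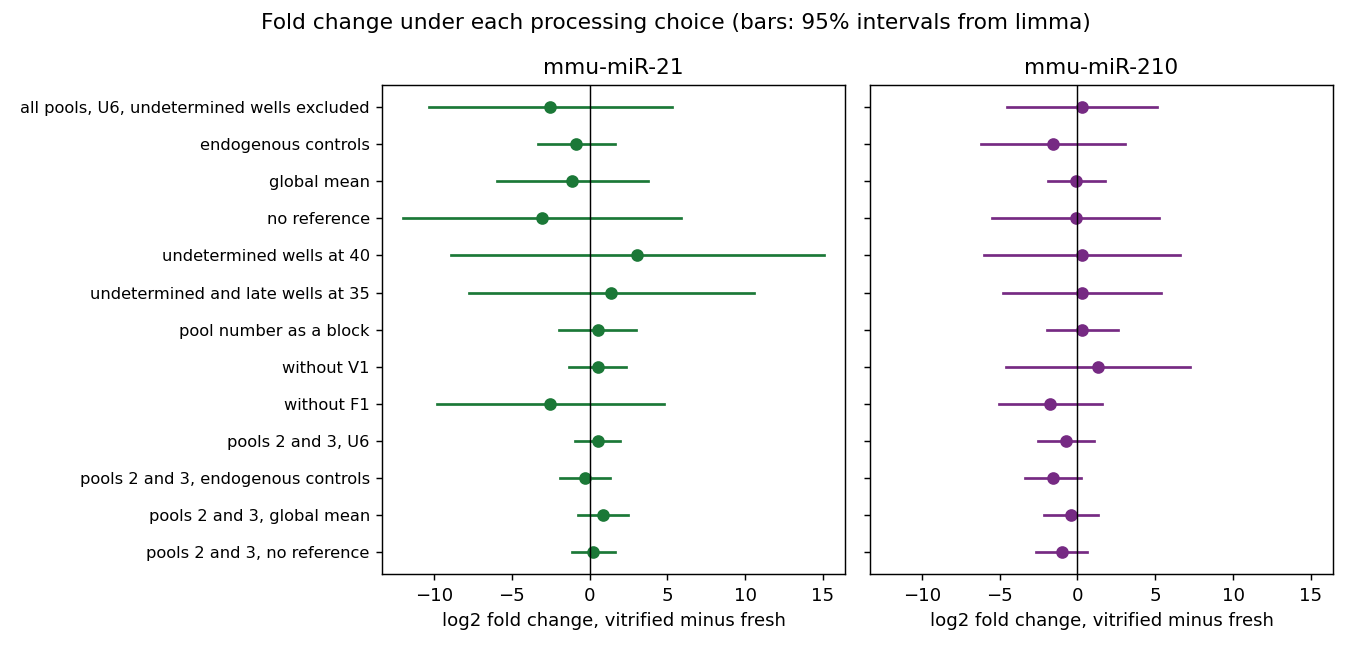
Log2 fold changes of mmu-miR-21 and mmu-miR-210, vitrified minus fresh, under a range of processing choices, with points for the estimates and bars for the 95% intervals from limma. Every interval includes 0, and estimates lie on both sides of it for each miRNA.

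In the limma comparison over all pools, 0% of the 335 assays had an adjusted p under 0.05, neither member among them, and 0.299% had an unadjusted p under 0.05. The unadjusted p was 0.449 for mmu-miR-21 and 0.882 for mmu-miR-210. Without the pools numbered 1, 0% of 326 assays passed after adjustment and 4.91% before it, and the members were again not among them (unadjusted p = 0.394 for mmu-miR-21 and 0.332 for mmu-miR-210, limma).

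Since both assays are on one card, the Ct of mmu-miR-210 minus that of mmu-miR-21 gives the log2 ratio of miR-21 to miR-210 in a pool with no reference. It also holds the unknown difference between the efficiencies of the assays, so that only its changes between pools are read. This log2 ratio was 4.10 in V2, 3.27 in V3, 2.95 in F2 and 1.89 in F3, but −2.43 in V1, and F1 gave no value. miR-21 was thus the earlier of the pair in 4 pools and the later in V1.

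Over all pools the mean log2 ratio was 1.64 ± 3.55 for vitrified (SD, n = 3) and 2.42 ± 0.75 for fresh blastocysts (SD, n = 2), which differed by less than the spread (2-sided exact permutation test, p = 1.0, where the smallest possible is 0.1). Without V1 it was 3.68 ± 0.59 (SD, n = 2) in vitrified blastocysts, so that the ratio was 1.26 higher than in fresh ones on the log2 scale. V2 and V3 were both above F2 and F3, at an exact permutation p of 0.333 (2-sided), again the lowest open to 2 against 2. No reference enters this order. The 1.26 is the log2 fold change of mmu-miR-21 less that of mmu-miR-210 in these pools, both given above, and is not a separate result. Among single assays in raw Ct, these pools were parted with vitrified earlier for 15.3% of 326 and with vitrified later for 26.1%. The share among other pairs of assays was not computed.

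The opposite arm of the miR-21 hairpin, mmu-miR-21#, was measured on card B. Its raw Ct was 30.23 in V1 and 32.05 in V2, and 33.05 in F2 and 29.84 in F3, and it was undetermined in V3 and F1. Its mean ΔCt was 13.46 ± 1.24 for vitrified and 14.39 ± 2.42 for fresh blastocysts (SD, n = 2 each), a log2 difference of 0.94 that was smaller than the spread (2-sided exact permutation test, p = 0.667, where the smallest possible is 0.333). Without V1 the vitrified value is that of V2 alone, 14.33, and the log2 difference 0.058. The ΔCt of mmu-miR-21# minus that of mmu-miR-21 was 8.68 in V2, 10.05 in F2, 6.52 in F3 and −2.14 in V1. Since the assays differ in efficiency and lie on different cards, each with its own U6 wells, only the change of this value between pools is read, and V1 lay apart from the others. mmu-miR-590-5p, known as a seed mate of miR-21, gave a late Ct of 36.34 in V2 and of 37.81 in F2 and none in the other pools, and was not tested.

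The assays whose pattern was most like that of the members were sought among the card A miRNA assays determined in all 6 pools, by the root mean square difference in Ct over the pools after each assay was centered on its own mean. For mmu-miR-21, over the 5 pools in which it was determined, the nearest of 80 assays were mmu-miR-26a (0.666 cycles), mmu-miR-142-3p (0.668), mmu-miR-27a (0.740), rno-miR-196c (0.817) and mmu-miR-652 (0.881), against a median of 2.15 cycles. These had late wells in V1 as well. All were determined in F1, where mmu-miR-21 was not, from 27.13 for mmu-miR-652 to 35.21 for rno-miR-196c. mmu-miR-142-3p is a blood cell miRNA and one of the blood list given above.

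For mmu-miR-210, over 6 pools, the nearest of 79 assays were mmu-miR-29a (0.476 cycles), mmu-miR-16 (0.511), mmu-miR-24 (0.538), mmu-miR-135b (0.570) and mmu-miR-222 (0.578), against a median of 1.33 cycles. The raw Ct of mmu-miR-29a, for instance, was 25.22, 21.29 and 21.56 in V1, V2 and V3 and 27.62, 21.13 and 20.32 in F1, F2 and F3. All assays compared share these pools, and the delays of V1 and F1 given above differ between assays. When V1 and F1 were left out, the nearest assays were others, led by mmu-miR-223 (0.155 cycles) for mmu-miR-21 and by mmu-miR-331-3p (0.291 cycles) for mmu-miR-210.

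Other miRNAs linked to stress were read from lists. A hypoxia list held 11 assays for miRNAs known to be induced with miR-210 (miR-23, miR-24, miR-26, miR-27, miR-103, miR-107 and miR-181), of which 10 were tested. With U6 and the pools numbered 2 and 3, 8 were higher and 2 lower in vitrified blastocysts and 0 had an unadjusted p under 0.05. The median log2 fold change was 0.25, beside −0.023 over all 326 assays, of which 49.4% were higher. With the snoRNAs as the reference 1 of the 10 was higher (16.6% of all assays), with the global mean 9 were (64.1% of all), and in raw Ct 5 were (40.8% of all). mmu-miR-107 had an unadjusted p of 0.0121 with the global mean (limma, adjusted p = 0.406). Over all pools with U6, 6 were higher and 4 lower, with a median of 0.38 beside −0.053 over all 335 assays. The smallest p was that of mmu-miR-107, which was undetermined in V1 and F1 and had a raw Ct of 32.09 in V2, 32.14 in V3, 35.85 in F2 and 33.18 in F3. Its difference of 2.67 on the log2 scale rests on these 4 wells in both comparisons, with a standard error of 1.11 in the fit of the pools numbered 2 and 3 (limma, adjusted p = 0.867) and of 1.52 in that of all pools (limma, adjusted p = 0.998). The next over all pools was mmu-miR-181a, at −2.61 over all pools and −0.18 in the pools numbered 2 and 3.

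Of the oxidative stress list, the miR-200 family that hydrogen peroxide induces (miR-200a, miR-200b, miR-200c, miR-141 and miR-429), all 5 assays were tested. Each had, without V1 and F1, a lower value in vitrified blastocysts, with a median log2 fold change of −0.74, and a smallest unadjusted p of 0.315 (mmu-miR-200a, limma, adjusted p = 0.912). The same pools had 0 of the 5 higher under each of the 4 references, beside 49.4% of all assays with U6, 16.6% with the snoRNAs, 64.1% with the global mean and 40.8% in raw Ct. The references move every assay of the card alike, so that these 4 counts are not separate results. Card B holds hsa-miR-200b and hsa-miR-200c, which are not on the list. With U6 and these pools they were at −0.21 and −0.26, beside −0.53 for mmu-miR-200b and −0.74 for mmu-miR-200c. Over all pools they were at 0.36 and 0.30. Over all pools 4 of the 5 were higher, with a median of 0.41. With the snoRNAs as the reference 0 of the 5 were higher over all pools. The smallest p over all pools were those of mmu-miR-429, at 0.58 on the log2 scale (standard error 1.34), and mmu-miR-200b, at 0.82 (standard error 2.53).

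The NF-κB list held mmu-miR-146a, mmu-miR-146b and mmu-miR-155, which like miR-21 are induced by inflammatory signals. The card A assay mmu-miR-146b was undetermined in every pool. The assay rno-miR-146B of card B, which is not on the list, was determined, with a log2 fold change of −0.92 over all pools and of −1.32 without V1 and F1 (standard error 0.77). The raw Ct of mmu-miR-146a was 24.70 and 25.20 in V2 and V3 and 23.68 and 23.30 in F2 and F3, which against U6 made a log2 difference of −1.20 with a standard error of 0.63 (limma, adjusted p = 0.867). mmu-miR-155 was at 0.18 in the same pools (standard error 0.56). Over all pools the values were −0.48 and −0.061. With other references and the pools numbered 2 and 3, mmu-miR-146a had an unadjusted p of 0.0314 with the snoRNAs (−2.01, limma adjusted p = 0.502) and of 0.0455 in raw Ct (−1.46, limma adjusted p = 0.643).

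Of the p53 list (miR-34a, miR-34b-3p, miR-34c, miR-192, miR-194 and miR-215), 5 of 6 assays were tested, and without V1 and F1 3 were higher and 2 lower, with a median log2 fold change of 0.050. Over all pools 2 were higher and 3 lower, with a median of −0.14. The smallest p over all pools were those of mmu-miR-192, at −2.24 (standard error 2.33), and mmu-miR-34c, at 1.90 (standard error 2.12). Without V1 and F1 these were at −0.039 and 0.050. mmu-miR-34b-3p then had the smallest p, at −1.13 with U6 (unadjusted p = 0.176, limma) and at −1.95 with the snoRNAs (unadjusted p = 0.0474, limma adjusted p = 0.502). The card B assay mmu-miR-34b-5p, not on the list, had the opposite sign with U6. It was at 0.51 in these pools (standard error 0.61) and at 1.46 over all pools. With U6 as the reference and no replicate block, 0 of the assays in the 4 lists had an adjusted or an unadjusted p under 0.05. This held with or without the pools numbered 1.

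**Figure D4:**
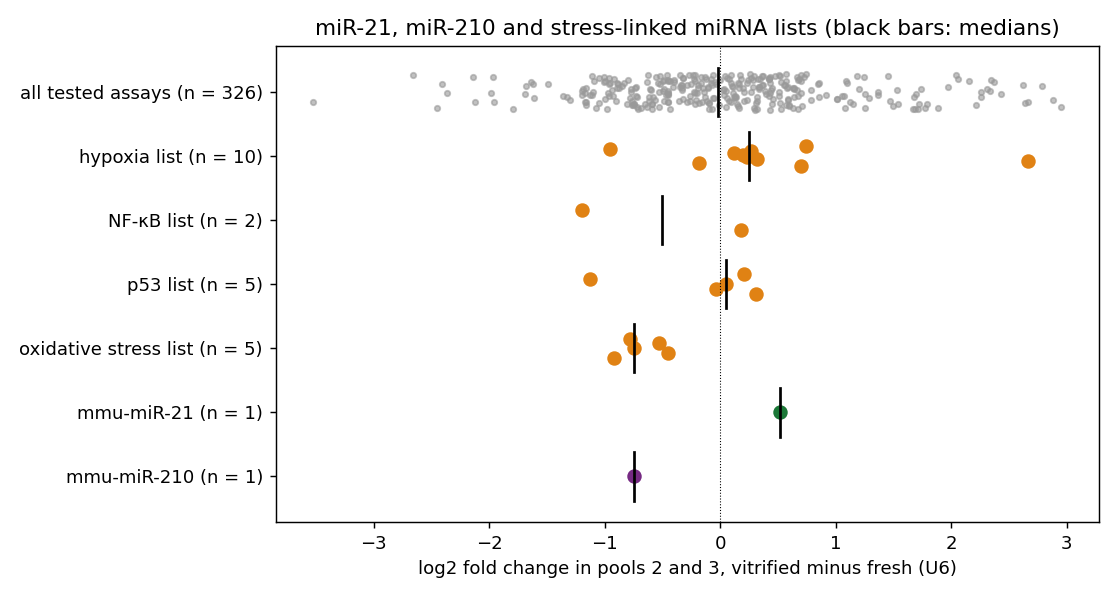
Log2 fold changes in the pools numbered 2 and 3, vitrified minus fresh with U6 as the reference, for all 326 tested assays (grey), the stress-linked lists (orange), mmu-miR-21 (green, 0.52) and mmu-miR-210 (purple, −0.75). Black bars are medians, which lie at 0.25 for the hypoxia list and at −0.74 for the oxidative stress list.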

How the data were processed

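Total RNA (30 ng) of each pool was reverse transcribed, pre-amplified and run for 40 cycles on the cards by the authors, who deposited the raw Ct of 768 wells per pool, 1 value per well, without normalization. A deposited table of the authors' own fold changes was not used.

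A Ct of 40 or an undetermined well was excluded and ΔCt taken against U6, as in the study's methods. The comparison took every assay that had 2 or more determined values in each group and used limma 3.58.1 (lmFit, eBayes; R 4.3.3). Its p-values were 2-sided and were adjusted over all these assays after Benjamini and Hochberg. Exact permutation tests went through each possible regrouping of pools. Tables used Python 3.11.15 with pandas 2.3.3 and numpy 2.4.6. No source says whether pools came from separate days, so that p-values speak only for these pools. In the limma fits the spread of each assay is moderated by that of all assays. Replicate pools had 0 identical Ct values.

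Pool numbers come from the sample labels. Deviations from the group means over 122 assays correlated between pools of the same number at 0.80, 0.78 and 0.67, but V2 with F3 and V3 with F2 correlated as well, at 0.72 and 0.74, since V1 and F1 set the group means apart. Over 326 assays, V3 minus V2 and F3 minus F2 correlated at −0.35. The numbers 2 and 3 therefore show no pairing of their own, and the fits have no block.

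The members and lists were chosen with earlier results of these data known. Named beside the members were mmu-miR-21#, mmu-miR-590-5p, the 5 assays most like each member, and the list assays with the smallest p over all pools. That rule asked for likeness over 6 pools, and mmu-miR-21 allowed 5. The assays named for likeness in the pools numbered 2 and 3 were chosen after their values were seen. So were mmu-miR-20a, the card B assays rno-miR-146B, hsa-miR-200b, hsa-miR-200c and mmu-miR-34b-5p, and the other list assays given with values. Liver and ciliated epithelium markers were also read. mmu-miR-122 was determined in V3 and F2, and mmu-miR-449a and mmu-miR-34c in every pool, with the summed levels given above.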

Additional observations from a re-analysis of the deposited data

How the results depend on the processing

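Under the 21 alternatives fitted, 0 assays reached an adjusted p under 0.05 (limma, or the unmoderated test in 1 of them), with 0 to 32 at an unadjusted p under 0.05, and the adjusted p of mmu-miR-21 and mmu-miR-210 lay between 0.502 and 0.999. Directions were not stable. The log2 fold change of mmu-miR-21 turned from −2.53 to 3.08 with undetermined wells at 40, to 1.41 with late and undetermined wells at 35, and to 0.52 with the pool number as a replicate block or in the pools numbered 2 and 3. In those pools it was also 0.85 with the global mean, −0.30 with the endogenous controls and 0.25 without a reference, choices made after seeing the data. Over all pools the same references gave −1.11, −0.84 and −3.05. Leaving out single pools gave −4.08 to 0.52, positive without V1. That of mmu-miR-210 turned from 0.31 to −1.56 with the endogenous controls, −0.065 with the global mean, −0.11 without a reference and −0.75 in the pools numbered 2 and 3, where the same references, added after seeing the data, gave −1.57, −0.41 and −1.01. With each pool left out it ranged from −1.75 without F1 to 1.58 without F3, and was −0.43 without V3. The difference between groups in the log2 ratio of miR-21 to miR-210 turned from −0.77 to 2.77 and 1.11 with undetermined wells at 40 and at 35, and to 1.26 in the pools numbered 2 and 3 and with the replicate block. Leaving out single pools gave −2.00 to 1.26, positive without V1. For mmu-miR-21 and the ratio, the turns in sign with a pool left out or a well filled in follow from V1 and F1. For mmu-miR-210 the sign turned without F1 and also without V3. The cause of the other changes was not tested. The block changed no call. Added after seeing the data, the block in the pools numbered 2 and 3 gave 0.52 and −0.75 again, with larger standard errors of 0.96 and 0.95, and 10 unadjusted p under 0.05 in place of 16, mmu-miR-107 of the hypoxia list among them (unadjusted p = 0.0436, limma). Among assays determined in all 6 pools, mmu-miR-21 could not be fitted. Where a pool left out leaves 1 fresh value of mmu-miR-21, that value is assumed to vary like the others. The number of pools limits every comparison, and levels beyond 40 cycles are not seen.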
